A study of Mus musculus with 2 samples.

Results

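The heavy-chain constant genes decide the class of an antibody. The 8 of them examined here, among the 32228 genes of the count matrices, were Ighm (IgM), Ighd (IgD), Igha (IgA), Ighg1, Ighg2b, Ighg2c and Ighg3 (the IgG subclasses) and Ighe (IgE). They were counted in single cells of the colonic lamina propria (LP), the tissue under the gut epithelium, from C57BL/6 mice 8–10 weeks old. One library was labelled WT and the other Ring1AKO, from mice with a knockout of Ring1, the gene of the polycomb repressor Ring1A. Both groups drank dextran sulfate sodium (DSS), which injures the colon epithelium and causes colitis. Each library pooled CD45+ 7-AAD− cells, that is, living blood-derived cells, of 5 mice. The knockout was of the whole animal, and its effect on B cells cannot be told apart from that of other tissues, of the intestinal bacteria or of the library. With 1 library per group no test between groups was possible, and all intervals below are 95% intervals that cover counting error alone.

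A resting B cell makes IgM and IgD from a single long transcript, in which alternative processing joins the same variable region to Ighm or to Ighd. During class switching, DNA breaks at this locus are joined so as to bring another constant gene next to the variable region, and the Ighm and Ighd segments of that allele are lost. Plasma cells, the end stage of B cells, secrete antibody, which in the gut is mostly IgA joined by the J chain (Jchain).

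B cells were barcodes with at least 5 UMIs (unique molecular identifiers, each standing for 1 captured mRNA) of Cd79a, Cd79b and Ms4a1 together, less than 1% Jchain and no Cd3e. They numbered 1106 of 6005 filtered barcodes in WT and 3513 of 7918 in Ring1AKO, with a median of 4225 and 4355 UMIs. Plasma cells, with at least 10 UMIs of Mzb1, Derl3, Txndc5 and Xbp1, numbered 783 and 658. A further 72 and 98 barcodes met both definitions and were kept apart. For background, 1516 and 1345 T cells and all barcodes under 100 UMIs (cell-free barcodes) were used. B cell markers that were not part of the definition (among them Cd22, Pax5 and Ebf1) summed to 4276 and 4412 CPM (UMIs per 1000000 UMIs of the same cells) in B cells against 24.9 and 59.5 CPM in T cells. Myeloid markers summed to 987 and 1146 CPM in B cells, and T cell markers to 149 and 199 CPM. The libraries shared 11 filtered barcodes, of which 2 were B cells of Ring1AKO. Ring1 itself stood at 16.8 CPM in WT B cells (97 UMIs) and 16.3 CPM in Ring1AKO B cells (287 UMIs). A count near the 3′ end of the mRNA need not touch the deleted part, so this level checks neither the labels nor the knockout.

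All 8 genes lie on the minus strand of chromosome 12. In the mouse build GRCm38 (GENCODE M21) Ighm spans 113418558 to 113422730, Ighd 113406604 to 113416324 and Igha, at the far end of the row, 113254830 to 113260236. The IgG genes between them are close copies, which matters for counting. The start of the first coding exon is given for each of these 4 genes below, 5′ to 3′, because it shows how near the subclasses are to each other. Capitals mark bases that differ from Ighg1, which are 13 of 60 in Ighg2b, 14 in Ighg2c and 18 in Ighg3.
Ighg1, chr12:113330464-113330523: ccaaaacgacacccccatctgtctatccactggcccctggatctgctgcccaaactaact
Ighg2b, chr12:113307874-113307933: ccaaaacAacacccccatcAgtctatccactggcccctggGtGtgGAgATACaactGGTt
Ighg2c, chr12:113288873-113288932: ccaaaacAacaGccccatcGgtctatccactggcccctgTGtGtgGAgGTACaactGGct
Ighg3, chr12:113361173-113361232: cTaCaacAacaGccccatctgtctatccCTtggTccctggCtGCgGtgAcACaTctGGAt
No stretch of 90 bases was shared between the annotated transcripts of any 2 of the 8 genes. Reads that fall in shorter shared stretches could still be dropped or assigned to another subclass, so counts between the IgG genes remain uncertain to that extent. The secreted and the membrane form of each gene were not counted apart.

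Ighm and Ighd were the heavy-chain genes that B cells held far above the T cell level. Ighm stood at 1815 CPM (1780 to 1850) in WT B cells and 1808 CPM (1788 to 1828) in Ring1AKO B cells, a log2 ratio of Ring1AKO over WT of -0.01 (-0.04 to 0.03). Ighd stood at 717 CPM (695 to 739) and 648 CPM (636 to 660), a log2 ratio of -0.15 (-0.20 to -0.09). The level of Ighm in B cells was 14.4-fold that in T cells in WT and 14.0-fold in Ring1AKO. For Ighd the fold over T cells was 141 (109 to 193) and 72.7 (58.9 to 93.2), with 51 and 78 UMIs in all T cells together. These T cells were chosen without any Cd79a, Cd79b or Ms4a1 UMI, and the part of this choice in the folds was not tested. Against cell-free barcodes the distance was smaller. B cells in WT and Ring1AKO had 413% and 189% of the cell-free level of Ighm, and 871% and 312% of that of Ighd. At least 1 Ighm UMI was seen in 93.3% of WT and 97.0% of Ring1AKO B cells, against 38.0% and 40.6% of T cells, which were deeper (medians of 5708 and 5578 UMIs).

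**Figure D1:**
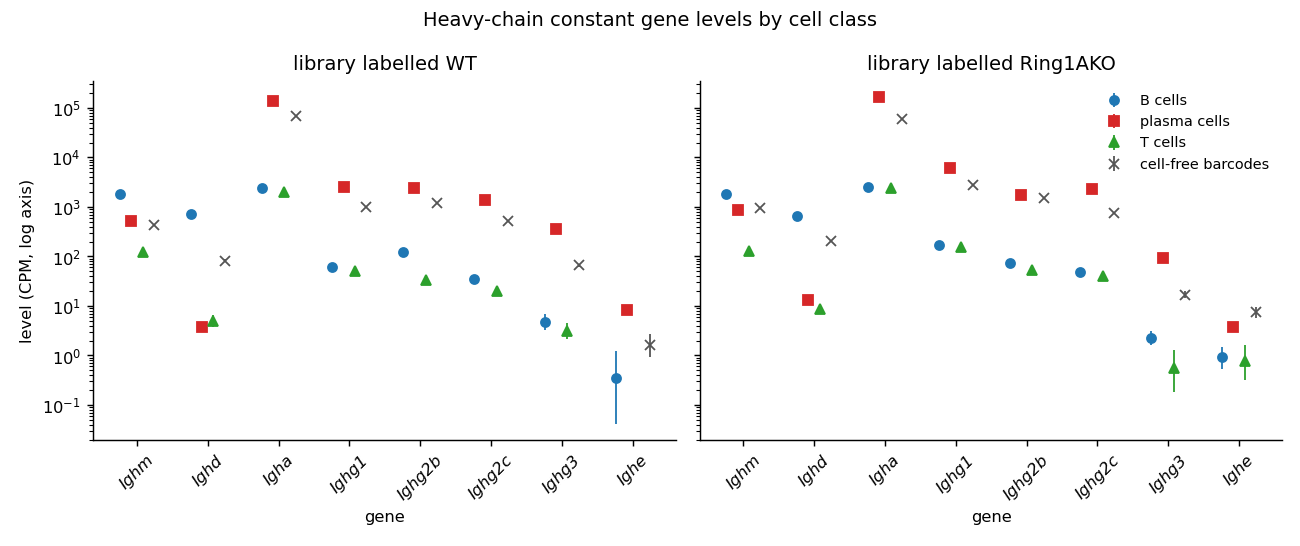
Level of the 8 heavy-chain constant genes in CPM (log axis) in B cells, plasma cells, T cells and cell-free barcodes of each library, with 95% Poisson intervals where they exceed the symbol. Ighm and Ighd of B cells lie well above T cells, whereas Igha and Ighg1 of B cells lie close to them. Ighe had 0 UMIs in WT T cells and is not drawn there.

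The switched genes gave another picture. Igha was the most counted heavy-chain gene in B cells, at 2371 CPM in WT and 2524 CPM in Ring1AKO, but T cells of the same libraries held 2050 and 2388 CPM. B cells thus had 1.16-fold (1.13 to 1.18) and 1.06-fold (1.04 to 1.07) the T cell level. Cell-free barcodes held Igha at 69469 and 58438 CPM, and plasma cells at 140488 and 163659 CPM. Ighg1 behaved alike. It was 62.5 CPM in WT B cells and 168 CPM in Ring1AKO B cells, a log2 ratio of 1.42 (1.27 to 1.59). T cells, in which the gene is not expressed, had 50.2 and 153 CPM (log2 ratio 1.61, 1.46 to 1.76), and cell-free barcodes had 1006 and 2801 CPM (log2 ratio 1.48, 1.44 to 1.51). The higher Ighg1 count of Ring1AKO B cells was thus matched in cells of other lineages.

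Ighg2b differed from Igha and Ighg1. In WT it stood at 124 CPM (115 to 134) in B cells and 33.2 CPM in T cells, a 3.73-fold difference (3.28 to 4.26). In Ring1AKO it stood at 72.8 CPM (68.9 to 76.9) in B cells and 52.4 CPM in T cells, a 1.39-fold difference (1.25 to 1.55). Scaled to Igha in the same cells, the B over T fold of Ighg2b was 3.23 (2.83 to 3.69) in WT and 1.31 (1.18 to 1.46) in Ring1AKO. The same scaled fold of Ighg1 was 1.08 (0.939 to 1.23) and 1.04 (0.972 to 1.11). Between the libraries the log2 ratio of Ighg2b in B cells was -0.77 (-0.90 to -0.64), whereas in T cells it was 0.66 (0.45 to 0.86) and in cell-free barcodes 0.35 (0.31 to 0.39). The size of the B cell ratio depended on the cells and on the background: it was -0.13 without B cells with RNA of other lineages, -0.27 with no limit on Jchain and -2.16 with the T cell level subtracted. It was 1.67 with the barcodes that met both definitions counted as B cells. With those barcodes kept apart, Ighg2b of B cells and Ighg2b of the background stood in opposite order.

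The remaining switched genes were scarce. Ighg2c had 35.5 CPM in WT and 48.3 CPM in Ring1AKO B cells, against 20.5 and 40.3 CPM in T cells. Ighg3, an early subclass typical of responses without T cell help, gave 28 UMIs in WT and 40 UMIs in Ring1AKO B cells (4.85 and 2.28 CPM). Ighg3 was lower in Ring1AKO in T cells as well, with 32 and 5 UMIs, and in cell-free barcodes, with 642 and 149 UMIs. From these few UMIs, its fold of B over T cells was 1.55 (0.897 to 2.65) in WT and 3.45 (1.60 to 13.1) in Ring1AKO. Ighe, the rarest class, gave 2 and 16 UMIs in B cells.

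Of the 7 heavy-chain genes whose UMIs in the 2 libraries summed to 20 or more, 1 was at least 2-fold higher in Ring1AKO B cells (Ighg1) and 1 was at least 2-fold lower (Ighg3), and both moved with the cell-free level. Among all 11309 genes with that count, 1.19% were at least 2-fold higher and 7.68% at least 2-fold lower, with a median log2 ratio of -0.20. Set against that median, Ighm (-0.01) and Ighd (-0.15) lay slightly above the middle of the transcriptome of these cells.

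The balance of IgD to IgM was then examined within B cells, where it does not depend on how many UMIs other genes take. Ighd made up 28.3% (27.6 to 29.0) of the Ighm and Ighd UMIs in WT and 26.4% (26.0 to 26.8) in Ring1AKO. The difference was -1.94 percentage points (-2.78 to -1.10), an interval that leaves out any spread between cells, mice or libraries. In the 745 WT and 2097 Ring1AKO B cells with at least 10 such UMIs, the median cell had 28.6% Ighd in WT (quartiles 17.6% and 40.0%) and 25.0% in Ring1AKO (quartiles 16.7% and 36.4%). The SD over cells was 16.3 and 14.5 percentage points, where counting error alone would give 11.5 and 11.4. Single B cells therefore differed in their balance beyond counting error, more so in WT.

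**Figure D2:**
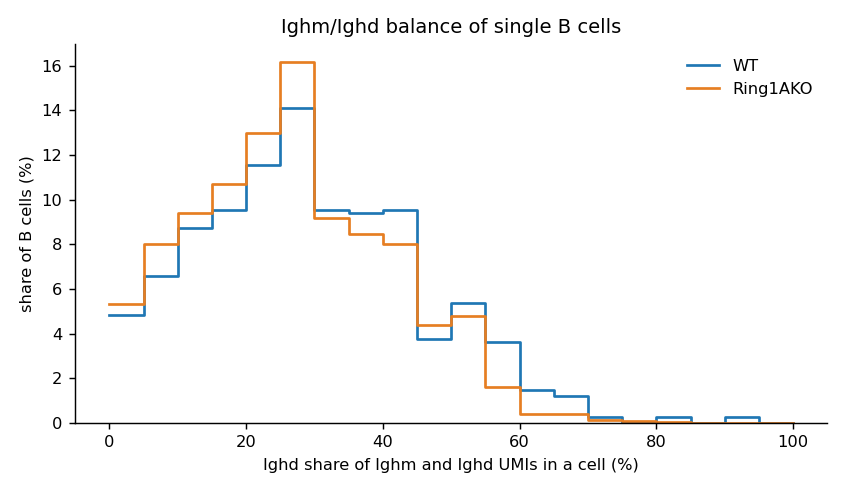
Ighd share of the Ighm and Ighd UMIs of each B cell with at least 10 such UMIs, as the share of cells in steps of 5 percentage points, for WT (745 cells) and Ring1AKO (2097 cells). Both libraries have a single broad peak between 25% and 30%, and the WT curve lies above that of Ring1AKO from 50% to 75%.

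The libraries parted at the IgD end of this distribution. Ighd exceeded Ighm in 70 WT cells (9.40%, 7.40 to 11.7) and in 102 Ring1AKO cells (4.86%, 3.98 to 5.87). At the IgM end, 34 cells (4.56%, 3.18 to 6.32) and 93 cells (4.43%, 3.59 to 5.41) had no Ighd UMI. No cell lacked Ighm, and 0 of 745 and 0 of 2097 cells allow shares of up to 0.403% and 0.143%. At least 1 Ighm UMI was also seen in 38.0% and 40.6% of T cells, so background Ighm can hide a cell that uses IgD alone. The bounds hold for cells without an Ighm UMI and do not limit the share of cells that use IgD alone. The balance also went with the depth of the cell. In the 277 and 877 shallowest B cells Ighd made up 30.4% in WT and 27.4% in Ring1AKO, and in the 277 and 879 deepest B cells 24.6% in both. In these deepest cells the level of Ighd was 412 CPM in WT and 502 CPM in Ring1AKO, the reverse of the order in the shallowest, with 1128 and 808 CPM. Outside B cells the Ighd share was lower, to an unlike extent. It was 0.714% and 1.51% in plasma cells, and 15.8% and 17.8% in cell-free barcodes. In filtered barcodes that fell in none of the defined classes it was 18.1% and 21.1%.

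Zfp318, the nuclear factor that IgD expression is known to need, stood at 164 CPM in WT and 138 CPM in Ring1AKO B cells (log2 ratio -0.24). None of the 6 genes of IgM and IgD processing (Zfp318, Hnrnpll, Ell2, Cstf2, Pabpc1 and Ptbp1) differed by 2-fold, and their median log2 ratio was -0.47.

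T cells held Ighm at a larger share of its cell-free level than Igha or Ighd. Their 126 CPM in WT and 129 CPM in Ring1AKO were 28.6% and 13.5% of the cell-free level, against 2.95% and 4.09% for Igha and 6.08% and 4.24% for Ighd. Ighm was 1.77-fold (1.62 to 1.95) and 2.13-fold (1.86 to 2.46) higher in T cells than in myeloid cells, while for Igha these folds were 1.08 and 0.910. For Ighd they were 2.11 (1.29 to 3.69) and 1.70 (1.07 to 3.05), from few UMIs. Among T cells, those with Cd4 UMIs had 141 and 160 CPM of Ighm and those with Cd8a UMIs had 88.0 and 93.5 CPM. Unrearranged transcripts of the Ighm region are known in T cells, and the 3′ counts do not tell them from mRNA of IgM. Whether these UMIs came from T cells or from RNA of B cells was not tested.

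Switched B cells were next counted cell by cell. Every cell was thinned at random to 2000 UMIs, which left 1102 WT and 3492 Ring1AKO B cells, and a gene was taken as above background when a B cell reached a UMI number that at most 1% of the T cells of its library reached (2 UMIs at the least). The limits were 4 UMIs for Ighm, 13 and 14 for Igha in WT and Ring1AKO, 2 and 3 for Ighg1, and 2 for the other genes. Ighm was above its limit in 52.4% of WT and 47.8% of Ring1AKO B cells, and Ighd in 45.6% and 38.7%. At 2000 UMIs 27.7% and 34.5% of B cells had no heavy-chain gene above its limit, so cells that use a class were missed. Up to 1% of T cells could reach each limit, so a share near that of T cells is not a lower bound.

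Ighg2b was above its limit in 38 WT B cells (3.45%, 2.45 to 4.70) against 0.198% of WT T cells. In Ring1AKO it was above in 45 B cells (1.29%, 0.941 to 1.72) against 0.225% of T cells. Myeloid cells gave 0.379% and 0.786% at this limit. In both libraries the share exceeded that of T cells, and it was lower in Ring1AKO, with a log2 ratio of -1.42 (-2.04 to -0.80). As a share of all filtered barcodes the log2 ratio was -0.16 (-0.78 to 0.47), since B cells were 18.4% of the filtered barcodes in WT and 44.4% in Ring1AKO. At a limit of 3 UMIs 20 WT cells (1.81%) and 13 Ring1AKO cells (0.372%) remained, and the highest cell had 9 and 11 UMIs. Of the 38 WT cells, 34 had Ighd below its limit (89.5%, against 54.4% of all WT B cells) and 30 had both Ighm and Ighd below (78.9% against 31.8%). Of the 45 Ring1AKO cells, 32 had Ighd below (71.1%, 55.7 to 83.6, which holds the 61.3% of all Ring1AKO B cells) and 27 had both below (60.0%, 44.3 to 74.3, against 36.4%). A second switched gene was above its limit in 1 of the WT and 2 of the Ring1AKO cells.

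**Figure D3:**
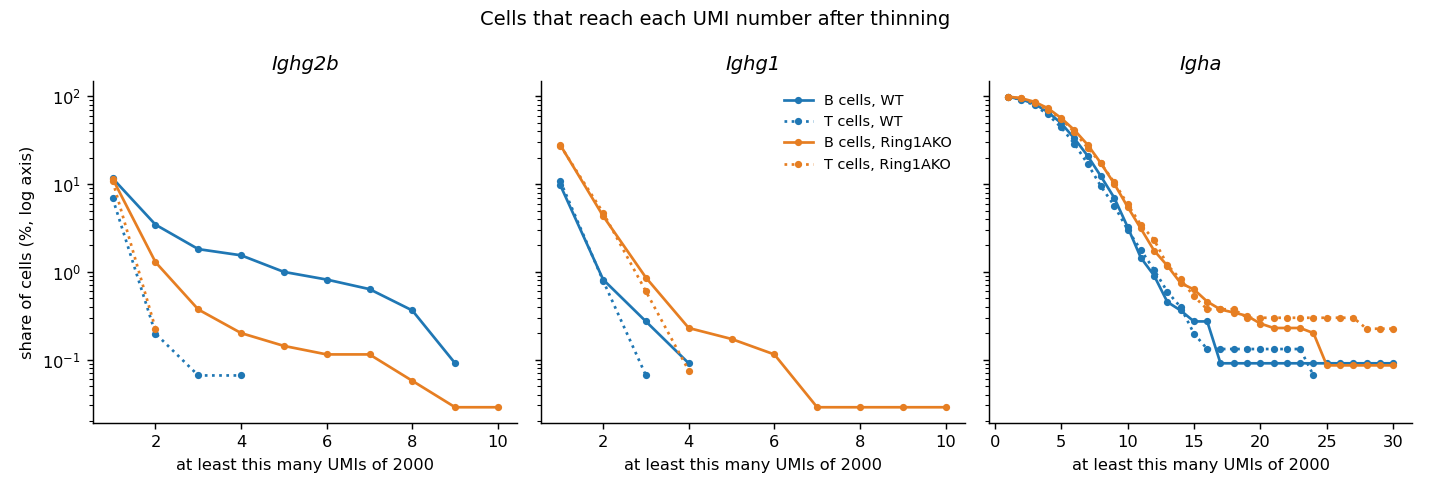
Share of cells (log axis) with at least a given number of UMIs of Ighg2b, Ighg1 and Igha after thinning each cell to 2000 UMIs, for B cells (solid) and T cells (dotted) of both libraries. For Ighg2b in WT the B cell curve lies above the T cell curve from 1 UMI on (11.6% against 6.86%). In Ring1AKO the curves start close (11.5% and 10.8%) and part from 2 UMIs on, less than in WT. For Igha the curves of B and T cells run together.

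No other switched gene exceeded its T cell share clearly in both libraries. Igha was above its limit in 0.454% of WT B cells against 0.594% of T cells, and in 0.745% of Ring1AKO B cells against 0.824% of T cells. By this limit, IgA+ B cells could therefore not be told from the IgA background at this depth. Ighg1 was above in 0.817% against 0.792% in WT and in 0.859% against 0.599% in Ring1AKO. Ighg2c was above in 6 WT B cells (0.544%, with an upper bound of 1.18) against 0.0660% of T cells, but in Ring1AKO in 0.401% against 0.599%. Ighg3 was above in 0 WT cells, which allows up to 0.272%, and in 2 Ring1AKO cells. Ighe was above in 0 of 1102 and 0 of 3492 cells, which allows up to 0.272% and 0.0859%.

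Counted together, any switched gene was above its limit in 57 WT B cells (5.17%, 3.94 to 6.65) and in 112 Ring1AKO B cells (3.21%, 2.65 to 3.85). T cells gave 1.58% and 2.25% by the same count, which would correspond to 17.4 and 78.5 of the B cells. Most of the Ring1AKO count thus lay at the T cell rate. Myeloid cells at the same limits gave 3.41% in WT and 5.89% in Ring1AKO, the latter above the B cell share, with Igha above its limit in 2.18% and 4.72% of them. The 4 IgG genes gave 4.72% in WT (T cells 1.06%, myeloid cells 1.33%) and 2.55% in Ring1AKO (T cells 1.42%, myeloid cells 1.96%), a log2 ratio of -0.89 (-1.37 to -0.40). With a limit that at most 5% of T cells reached, the order of the libraries turned, to log2 ratios of 0.19 for all switched genes and 0.34 for IgG. The lower shares in Ring1AKO also hold only within B cells. As shares of all filtered barcodes, at the 1% limit, the log2 ratio was 0.58 (0.12 to 1.03) for all switched genes. For IgG it was 0.38 (-0.11 to 0.87).

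A count that needs no thinning also gave a lower share of B cells in Ring1AKO. B cells with neither an Ighm nor an Ighd UMI numbered 70 in WT (6.33%, 4.97 to 7.93) and 83 in Ring1AKO (2.36%, 1.89 to 2.92), although they were deeper than the rest (medians of 6434 against 4152 UMIs and 6279 against 4330.5). After thinning, an IgG gene was above its limit in 29 of 70 such WT cells (41.4%, 29.8 to 53.8) and in 23 of 82 in Ring1AKO (28.0%, 18.7 to 39.1), against 2.23% and 1.94% of the other B cells. Their Ighg2b level was 646 CPM in WT and 396 CPM in Ring1AKO, against 70.8 and 61.6 CPM in the B cells with IgM or IgD UMIs. Igha in the same cells was 3945 CPM in WT and 2824 CPM in Ring1AKO, against 2210 and 2513 CPM. The part of IgA+ B cells in this Igha difference was not tested. A switched B cell with background Ighm or Ighd RNA is missed by this count. Cell-free barcodes held Ighm at 439 and 959 CPM and Ighd at 82.3 and 207 CPM in WT and Ring1AKO. T cells held Ighm at 126 and 129 CPM and Ighd at 5.00 and 8.79 CPM. The part of this background in the count was not tested. Of all filtered barcodes, the cells with neither UMI were 70 of 6005 and 83 of 7918.

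The genes of the switched cells were compared with those of B cells in which both Ighm and Ighd were above their limits (IgM+IgD+). The switched cells with Ighd below its limit numbered 49 in WT and 83 in Ring1AKO, against 325 and 782 IgM+IgD+ cells, and were deeper (medians of 5983 against 3939 UMIs and 4535 against 4155). Of 7285 genes with at least 50 UMIs, 2.47% were at least 2-fold higher in switched cells in both libraries and 0.782% at least 2-fold lower. The genes highest in both were Pclaf, Basp1, Nt5e, Mki67, C1qa, Hmgn3, Top2a and Lacc1. The filter summed UMIs over both sets of cells and both libraries, so some of these genes, such as Pclaf, passed it through the switched cells. The UMI added to each sum also weighs more on the smaller sums of switched cells. Both the ranking and the shares of genes past 2-fold carry these limits. Pclaf, Mki67 and Top2a are genes of dividing cells. Pclaf had 22 UMIs in the WT and 85 in the Ring1AKO switched cells, against 0 and 3 in all IgM+IgD+ cells. Basp1 was 334 and 309 CPM in switched cells against 8.25 and 10.3 CPM. CPM in this comparison, and in that of the Ighg2b cells below, was taken without immunoglobulin genes. C1qa is a macrophage gene, with 4 and 43 UMIs in switched cells against 0 and 10, and the part of macrophage RNA in these cells was not tested.

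The 7 germinal centre genes of a list are given as raw UMIs, since several were too scarce for the filter. Germinal centres are the sites at which B cells divide, mutate and are selected. Mybl1, a transcription factor of germinal centre cells, had 26 UMIs in 49 WT switched cells and 1 in 325 IgM+IgD+ cells, and 7 in 83 against 0 in 782 in Ring1AKO. Rgs13 had 18 against 2 and 11 against 1, and S1pr2, the receptor that holds B cells in the germinal centre, 12 against 1 and 10 against 3. Fas had 23 against 14 and 9 against 11, and Mki67 21 against 2 and 23 against 8. Gcsam had 6 against 0 in WT and no UMI in either set of Ring1AKO. Per cell, each of these genes was higher in the switched cells wherever it was counted at all.

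The 7 memory genes did not move together. Nt5e (CD73), a marker of memory B cells, had 33 UMIs against 1 in WT and 26 against 8 in Ring1AKO, and Cd80 had 20 against 0 and 8 against 6. Pdcd1lg2 (log2 ratios of switched over IgM+IgD+ cells of -0.88 in WT and -0.42 in Ring1AKO), Cd38 (-1.05 and -0.25) and Itgb7 (-0.72 and -0.61) lay below 0 in both libraries. The median of the 6 memory genes that passed the filter was 0.07 in WT and -0.19 in Ring1AKO. Among the naive and follicular genes, Fcer2a (CD23) gave log2 ratios of -1.40 in WT and -0.94 in Ring1AKO, and Cr2 (CD21) -1.14 and -0.76. Zfp318 was lower, at -2.42 and -1.43, beside the low Ighd by which these cells were chosen. The median log2 ratio of the 7 naive and follicular genes was -1.14 in WT and -0.47 in Ring1AKO, where that of all genes was 0.15 and 0.12. Switched cells were chosen with Ighd below its limit and IgM+IgD+ cells with Ighd above it. Over the cell classes Ighd went closely with Fcer2a, as given below. The part of this choice in the lower naive and follicular genes was not tested, and no unswitched cells with low Ighd were compared.

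**Figure D4:**
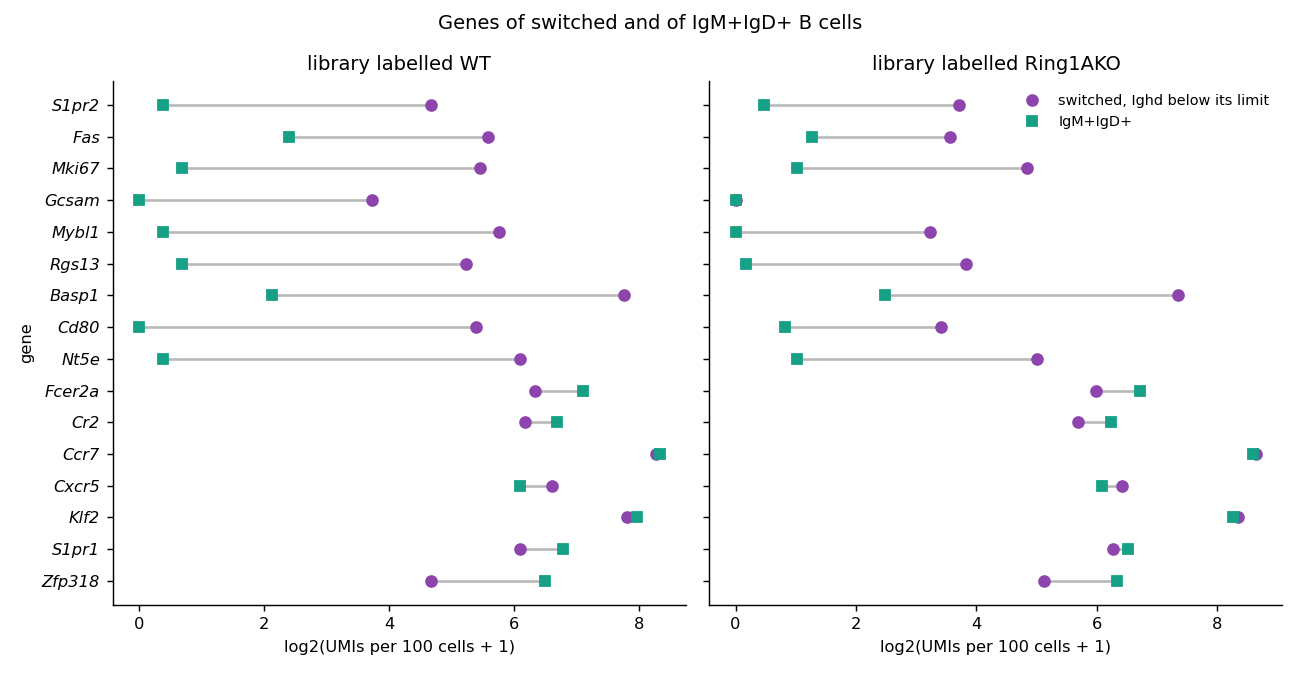
UMIs per 100 cells, as log2(UMIs per 100 cells + 1), of germinal centre genes, the memory markers Cd80 and Nt5e, naive and follicular genes and Zfp318 in switched B cells with Ighd below its limit (circles; 49 WT and 83 Ring1AKO cells) and in IgM+IgD+ B cells (squares; 325 and 782 cells). The germinal centre genes, Cd80 and Nt5e at the top are higher in switched cells of both libraries except Gcsam, which had no UMI in Ring1AKO, and Zfp318 is lower.

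Since much of the Ring1AKO switched count was at the T cell rate, the comparison was repeated with the Ighg2b cells alone (34 and 32 cells), a choice made after seeing the data. Here, with a filter of the same kind and the same limits, 3.13% of 7102 genes were at least 2-fold higher in both libraries and 1.15% lower. Basp1 was the highest, at 295 and 354 CPM against 8.25 and 10.3 CPM, followed by Pclaf, Hmgn3, Lmna, Rgs1, Tent5c, Anxa2 and St8sia6. Rgs1, a regulator of chemokine receptor signals that is high in tissue lymphocytes, was 456 and 479 CPM against 59.3 and 62.3 CPM. Pclaf rested on 2 UMIs in WT and 67 in Ring1AKO.

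The same germinal centre list was compared between the libraries over all B cells. Of its 7 genes, 6 were at least 2-fold lower in Ring1AKO, where 7.68% of all genes were, and the list's median log2 ratio was -1.46 against -0.20 for all genes. Mybl1 had 70 UMIs in WT and 28 in Ring1AKO (log2 ratio -2.90), although the Ring1AKO library held more B cells. Gcsam gave -2.93 (24 and 9 UMIs), Rgs13 -2.02 (43 and 32) and Mki67 -1.46 (102 and 113). Fas gave -1.36 (132 and 156), S1pr2 -1.23 (26 and 34) and Basp1 -0.70 (448 and 838). For Mki67, Fas, S1pr2 and Basp1 the UMI sum was thus not lower in Ring1AKO. The ratios are per UMI of B cells, which were 18.4% of the filtered barcodes in WT and 44.4% in Ring1AKO. None of the 16 class switching genes was 2-fold higher, and their median log2 ratio was -0.42. Of the 7 memory genes Nt5e (-1.47) and Cd80 (-1.42) were 2-fold lower. None of the 7 naive and follicular genes and none of the 9 switch signals and receptors differed by 2-fold, with medians of -0.21 and -0.15. Among 13 transcription factors 2 were 2-fold lower, Tbx21 and Rora, and among 7 marginal zone and B1 genes 1 was, Zbtb32. These are levels over the gate, and fewer cells with a gene cannot be told apart here from less RNA per cell.

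The barcodes that met the B and the plasma cell definition carried IgG at levels above those of B cells. In these 72 WT and 98 Ring1AKO barcodes Ighg1 stood at 202 and 14535 CPM, Ighg2b at 2738 and 17472 CPM and Ighg2c at 93.0 and 2234 CPM. A few barcodes carried these sums. The 5 highest held 89.3% of the Ighg2b UMIs in WT and 96.1% in Ring1AKO, and 1 Ring1AKO barcode gave 12387 of 38596. The 4 IgG genes together had more than 50% of the heavy-chain UMIs in 13 of the 72 WT and 30 of the 98 Ring1AKO barcodes, Igha in 38 of each, and Ighm in 13 and 12. B cell markers summed to 1640 and 1572 CPM, between B cells and plasma cells (54.9 and 98.0 CPM). Their median depth of 14706 and 18919.5 UMIs was above that of B cells. By definition they would also take in plasma cells with less than 1% Jchain that hold at least 5 UMIs of the B cell genes. Doublets of a B and a plasma cell, cells in transition and such plasma cells cannot be told apart here.

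Plasma cells were for the most part IgA cells. Igha had more than 50% of the heavy-chain UMIs in 742 of 783 WT plasma cells (94.8%, 93.0 to 96.2) and in 606 of 658 in Ring1AKO. Ighg1 led in 11 and 21 plasma cells, Ighg2b in 13 and 6, Ighg2c in 7 and 11, Ighm in 5 and 6, and Ighg3 in 0 and 2. The Ighg2b level of plasma cells was 2415 CPM in WT and 1726 CPM in Ring1AKO, and that of Ighg1 2510 and 6166 CPM. With the barcodes of both definitions kept apart, the order of the libraries for both genes in plasma cells was that of B cells. Those barcodes also met the plasma cell definition, and their Ighg2b ran the other way (2738 CPM in WT and 17472 CPM in Ring1AKO). For Ighg1 the order was also that of T cells and cell-free barcodes.

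Over 12 profiles, of 6 cell classes in each library, the level of Ighd went most closely with Fcmr (Pearson r of log2(CPM + 1) 0.993), Pax5, Fcer2a, Snn and Bank1. Igha and Ighg1 went with genes of plasma cells, led by Derl3 (r 0.995 and 0.963). Derl3 is among the genes that defined plasma cells, so its high level in their profiles was set by that definition. The 12 profiles share their libraries and their cell-free RNA, so these values describe them and carry no test.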

How the data were processed

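Droplet-based 3′ scRNA-seq of sorted colonic LP cells gave 1 library per group. The deposited matrices hold raw UMI counts for all barcodes (74414511 UMIs in WT and 81862096 in Ring1AKO), which the authors made with Cell Ranger. The sources differ on the version and build: the submitters' processing notes name version 6.0.2 with mm39, the study's methods another version with mm10, and the matrix header a Cell Ranger of series 4. Gene symbols of the files were used, and coordinates and sequences came from GENCODE M21 on GRCm38.

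Barcodes with at least 1000 UMIs, 500 genes and less than 5% mitochondrial UMIs were kept (6005 and 7918, with 61864835 and 69029466 UMIs). T cells had at least 3 UMIs of Cd3d, Cd3e and Cd3g, no B cell marker UMI and fewer than 10 UMIs of the plasma cell genes; myeloid cells had at least 10 UMIs of Lyz2, Csf1r, C1qa, C1qb, Csf3r, S100a8 and S100a9 and no B or T cell marker. No doublet caller was run; doublets were addressed by leaving out cells. Levels were summed UMIs as CPM with exact Poisson intervals, shares had exact Clopper-Pearson intervals, and log2 ratios had 1 UMI added to each sum. The comparisons of switched with IgM+IgD+ cells used CPM without immunoglobulin genes. A count of 0 was read as allowing 3. PCR duplicates are collapsed by UMI, and intervals cover counting error only. A gene was counted as different at 2-fold. The interval of the ratios and the background limit were tested on simulated counts, and the thinning step was not. The simulated switched cells held more UMIs on average than the highest Ighg2b cell after thinning, over an equal background in B and T cells. The simulation therefore does not show what share of real switched cells the limit finds. Alternatives changed the cell definitions, depth, limits and background source.

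The genes named were all members, the genes of 8 lists, the 8 highest and 8 lowest genes of switched cells by the smaller change of both libraries, and the 5 genes nearest to Ighd, Ighg1 and Igha. Some genes of these lists are not reported here. Members and lists were chosen with earlier results of these data known. Python 3.11.15, numpy 2.4.6, scipy 1.17.1 and pandas 2.3.3 were used.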

Additional observations from a re-analysis of the deposited data

Results flagged for a closer look

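The ratio of Ighd between the libraries pointed in opposite directions in B cells and plasma cells. In B cells the log2 ratio of Ring1AKO over WT was -0.15 (717 and 648 CPM), and in plasma cells it was 1.83 (3.77 and 13.5 CPM, from 90 and 318 UMIs). Each class has 1 library per group, and the difference between the ratios was not tested. Cell-free barcodes, with 82.3 and 207 CPM, had a log2 ratio of 1.33, and T cells one of 0.81. The part of cell-free RNA in the plasma cell value was not tested.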

How the results depend on the processing

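No paired analysis was possible, since each group had 1 library pooled from 5 mice and no label paired the mice. The difference in the Ighd share (-1.94 percentage points) kept its sign in 13 of 14 alternatives. It was -2.86 with each cell weighted alike and turned to 0.73 when the barcodes that met both definitions were counted as B cells, where 1 WT barcode alone held 1163 Ighm UMIs. The number of heavy-chain genes past 2-fold (2) was 1 with each cell weighted alike, 1 without B cells with other-lineage RNA, 1 without the deepest 5% of cells, and 5 with the barcodes of both definitions, which also turned the log2 ratios of Ighd to 0.011, Igha to -0.082 and Ighg2b to 1.67. Subtracting the T cell level turned Igha to -1.24 and Ighg2c to -0.90, and a mitochondrial limit of 10% turned Ighg2c to -0.60. For the log2 ratio of the switched share (-0.69), thinning to 1000 UMIs gave -1.20, to 4000 UMIs -1.79, a limit at 0.1% of T cells -1.99 and one at 5% 0.19. For IgG (-0.89) these were -1.45, -2.13, -1.94 and 0.34, and a limit from the cell-free level gave -1.94. The IgA share ratio (0.71, of 5 and 26 cells at the T cell rate) was 2.22 with at least 10 marker UMIs and -0.92 after thinning to 4000 UMIs, and had no value at 0.1%. The cause of these shifts was not tested. Leaving out cells with other-lineage RNA removed 819 of 1106 and 2639 of 3513 B cells. Counting both definitions, limits from myeloid cells and the higher limit of both libraries were added after seeing the data. At 2000 UMIs a cell needed 13 or 14 Igha UMIs to pass its background limit.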
